A study of Mus musculus with 6 samples.

Results

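The 8 genes described here are the metallothioneins *Mt1* and *Mt2*, their zinc-sensing transcription factor *Mtf1*, and 5 membrane carriers of zinc and manganese in liver, *Slc39a14*, *Slc39a4*, *Slc39a8*, *Slc30a1* and *Slc30a10*. They were taken by symbol from a table of 16123 genes that gives 1 expression value per genotype, and all 8 were listed. The libraries were 6 preparations of polyadenylated liver RNA from male mice, 3 from pools of wild-type (WT) mice of the strain C57BL/6Rj and 3 from pools of *Txndc5* knockout (KO) mice of the strain C57BL/6JRj-Txndc5<em2Mdnp>/Ciba. Per the study's methods a pool held 3 mice, and the mice were 2 months old. All mice received a purified chow for 4 weeks and were fasted for 16 h before the liver was taken. The KO allele is a germline deletion of exon 3 of *Txndc5*, which encodes a protein disulfide isomerase of the endoplasmic reticulum, and the line descends from a single founder male. The mice came from crosses of heterozygous parents. The strain labels of the genotypes differ in spelling, and any difference in background cannot be told apart from the deletion.

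Metallothioneins are small proteins rich in cysteine that bind zinc and copper in the cytosol. When free zinc rises, MTF1 binds metal response elements in the promoters of its targets and increases their transcription. The metallothionein genes and the zinc exporter gene *Slc30a1* are its best known targets. Proteins of the ZIP family (*Slc39a* genes) bring zinc into the cytosol, from outside the cell or from organelles, and those of the ZnT family (*Slc30a* genes) take it out. In liver, *Mt1*, *Mt2* and *Slc39a14* are known to respond to interleukin-6 as well, and the metallothioneins also to glucocorticoids and fasting.

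The promoters of *Mt1*, *Mt2* and *Slc30a1* are shown because these genes are known targets of MTF1. Whether MTF1 acts through the matches marked here was not tested. The core of the metal response element was searched as TGCACNC and TGCGCNC on both strands, in RefSeq windows from 250 bases before to 50 bases after the annotated start (build GRCm38.p6). A window was given for 6 of the 8 genes, all but *Slc39a14* and *Slc39a4*. Capitals mark each match, "start" is the RefSeq start, and every stretch is written on the plus strand, which is the coding strand of the 3 genes.
Mt1 upstream, chr8:94178939-94179081: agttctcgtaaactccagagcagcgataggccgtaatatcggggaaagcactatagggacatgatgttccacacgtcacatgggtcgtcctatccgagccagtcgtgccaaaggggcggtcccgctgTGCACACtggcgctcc
Mt1 after the start, chr8:94179089-94179118: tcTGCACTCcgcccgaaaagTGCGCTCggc
Mt2 upstream, chr8:94172388-94172617: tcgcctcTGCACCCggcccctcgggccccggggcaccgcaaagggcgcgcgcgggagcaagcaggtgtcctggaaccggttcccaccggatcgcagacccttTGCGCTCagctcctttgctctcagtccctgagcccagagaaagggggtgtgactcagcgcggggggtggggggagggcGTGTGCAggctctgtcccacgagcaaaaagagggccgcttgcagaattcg
Mt2 after the start, chr8:94172620-94172649: tcGTGCGCAggcccaggggcgtgtgctggc
Slc30a1 upstream, chr1:191906631-191906766: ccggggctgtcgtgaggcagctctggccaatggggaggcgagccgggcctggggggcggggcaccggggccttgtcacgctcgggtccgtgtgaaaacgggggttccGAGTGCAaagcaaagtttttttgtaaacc
Slc30a1 after the start, chr1:191906809-191906830: ccGAGCGCAgtcgccgcggacg

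The *Mt2* window held 4 matches and the *Mt1* window held 3, whereas 0.517% of all 32851 windows held at least 4 and 1.97% at least 3. The *Slc30a1* window held 2 matches, and 7.11% of all windows held at least 2. Of the other windows, that of *Slc30a10* held 3 matches, 2 of which are the same palindromic stretch read on either strand, and *Slc39a8*, which has windows at 2 starts, held 1 in that of the downstream start and 0 in the other. A single match or more was found in 25.7% of all windows, and the *Mtf1* window held 0. The windows follow the starts of RefSeq, which can differ from the first base of the gene in GENCODE M21. The RefSeq start lies 46 bases upstream of the GENCODE start for *Mt2*, 7 bases downstream for *Mt1* and 14 bases downstream for *Slc30a1*. The *Mt2* stretch after the RefSeq start is therefore still upstream of its GENCODE start. *Mt1* has 2 further annotated transcripts in GENCODE, which start at 94179211 and 94179241, downstream of the *Mt1* stretch after the RefSeq start. *Mt2* and *Slc30a1* each have another as well, with starts at 94172860 and 191907256. The bases just before those starts were not searched.

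*Mt1* and *Mt2* lie side by side on the plus strand of chromosome 8, at 94179082 to 94180327 and at 94172664 to 94173568 in GENCODE M21 on GRCm38, with 5513 bases between them. *Mtf1* lies on chromosome 4 (124802104 to 124849800, plus strand). Among the importers, *Slc39a14* lies on chromosome 14 (70303469 to 70351425, minus strand), *Slc39a4* on chromosome 15 (76612383 to 76617384, minus strand) and *Slc39a8* on chromosome 3 (135825279 to 135888572, plus strand). The exporters *Slc30a1* (191906767 to 191913247) and *Slc30a10* (185454848 to 185468762) are both on the plus strand of chromosome 1.

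*Txndc5* itself had an expression value of 2697 in WT and 90.8 in KO, 29.7-fold lower in KO, which checks the labels. The libraries held 44.04 to 46.05 M clean reads each, of which 91.63 to 93.66% were mapped and 0.26 to 0.69% were ribosomal. The share mapped uniquely was 62.19 to 65.69%. The 2 expression values of a gene come from reads divided by a size factor, a number that puts the libraries on 1 scale. The size factors ran from 0.818 in a WT library to 1.312 in a KO library, a wider range than that of the clean reads. They therefore do not simply follow depth. The mean of the 2 expression values is the mean over all 6 libraries, but neither is the plain mean of the 3 libraries of its genotype. *Slc39a12*, for example, had a KO value of 0.184 with 0 reads in every KO library, so each value depends on both genotypes. The ratio of the 2 values is shrunken toward 1, so that it understates the difference between the genotypes. It has no replicate check, because the columns hold no spread between pools. For weakly expressed genes the whole reads of the 6 libraries were recovered from the digits of the values. The recovered libraries carry a genotype but no pool number, and are called A, B and C within each genotype, A having the largest size factor. For the 3 members with recovered reads several sets of reads fitted, and the most plausible was taken, with a weight of 0.996 (of 1) for *Mtf1*, 0.987 for *Slc39a8* and 0.980 for *Slc30a10*. A set was plausible when close to the deposited ratio of KO over WT and to the differences between libraries in other genes. The genotype difference and the library pattern of these 3 members are therefore partly built into the choice. Library A of either genotype stood apart from the rest in weakly expressed genes. Each library is a pool of RNA from several mice, so that a p-value over libraries measures the spread between pools, not between mice.

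In these combined values no member differed by as much as 1.5-fold between the genotypes. By log2 ratio of KO over WT, 4 members were above 0 and 4 below, the median was 0.02, and the range was -0.42 (*Slc39a4*) to 0.32 (*Slc39a14*). Among the 11367 genes whose 2 values averaged 10 or more, called the expressed genes here, 1.57% were at least 1.5-fold higher and 5.79% at least 1.5-fold lower in KO, and the median was -0.05. A log2 ratio above 0 was found in 42.25% of them. All 8 members lay between the percentiles 5 and 95 of these genes, -0.62 and 0.40, and 4 of them between the percentiles 25 and 75, -0.23 and 0.13. With these shares, 0 of 8 is near the background.

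**Figure D1:**
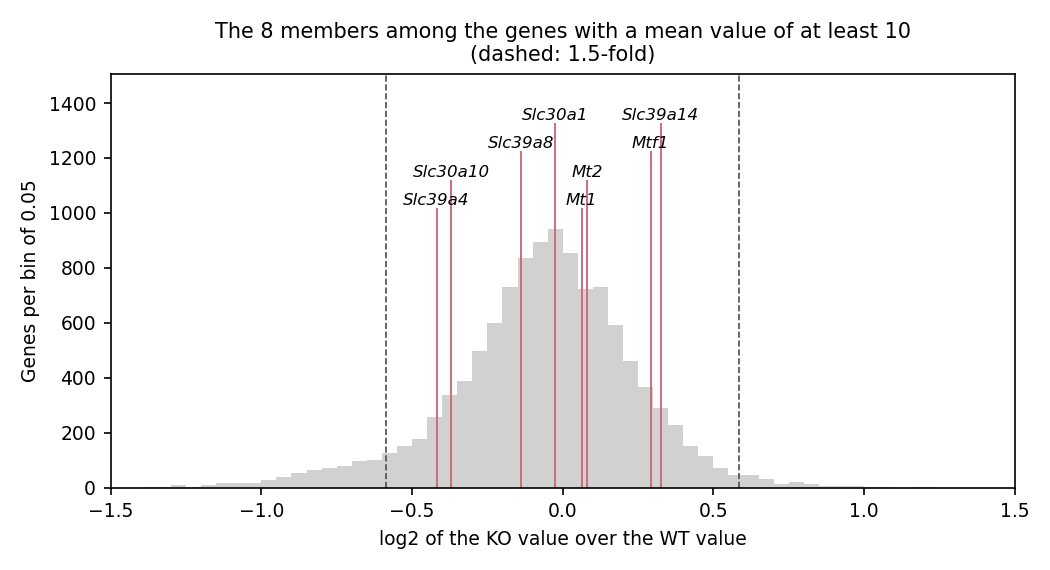
Distribution of the log2 ratio of KO over WT for the expressed genes, mean value 10 or more (grey bars, genes per bin of 0.05), with the 8 members as vertical red lines. Dashed lines mark 1.5-fold in either direction; all members lie between them, from -0.42 for *Slc39a4* to 0.32 for *Slc39a14*.

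The metallothioneins were by far the most abundant members. Per kilobase of transcript, *Mt1* stood at 6645 normalised reads in WT and 6939 in KO, above 98.02% of the expressed genes. *Mt2* followed with 2454 and 2596, above 95.6% of them. The importers *Slc39a14* (320.9 in WT, 401.9 in KO) and *Slc39a4* (309.7 and 231.8) came next, and their order in WT rested on a ratio of 1.04. Lower levels per kilobase were those of *Slc30a1* (48.1 and 47.3), *Slc39a8* (45.7 and 41.5), *Mtf1* (16.5 and 20.3) and *Slc30a10* (20.5 and 15.9). For the members with recovered reads, the levels per kilobase over the 6 libraries were 7.80 to 28.5 for *Slc30a10*, 10.3 to 24.1 for *Mtf1* and 23.4 to 72.6 for *Slc39a8*, so that *Slc30a10* and *Mtf1* cannot be ordered. Some reads could belong to overlapping genes where the counting did not use strand, which the sources used here do not state. *Mtf1* shares 721 bases with 1110065P20Rik on the other strand, whose mean value was 177.4, and *Mt2* shares 749 bases with the antisense gene Gm45774, which was not listed.

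**Figure D2:**
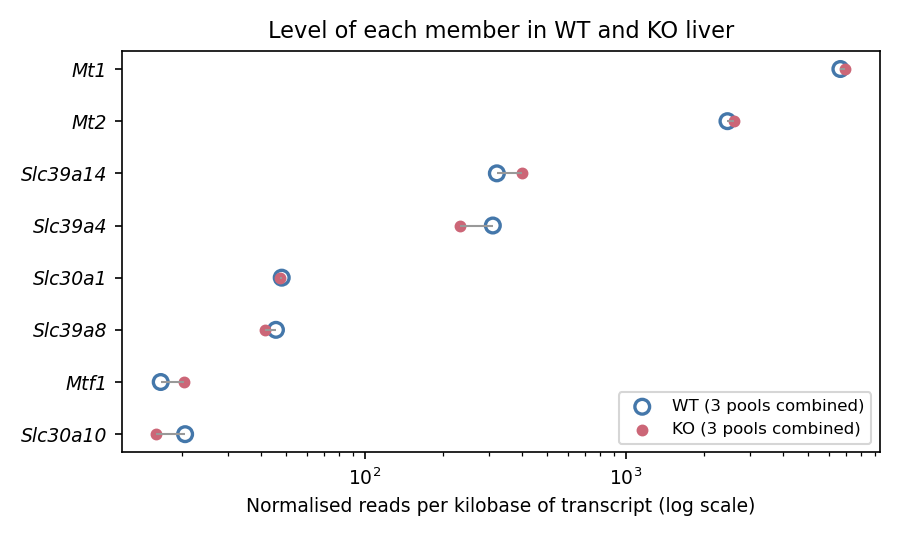
Level of each member in normalised reads per kilobase of transcript (log scale) in WT (open blue circles) and KO (filled red circles). Each value is labelled with the 3 pools of its genotype but depends on both genotypes, and has no error. *Mt1* and *Mt2* lie at 2454 or above in either genotype, *Slc39a14* and *Slc39a4* between 231.8 and 401.9, and the other 4 members at 48.1 or below.

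The metallothioneins differed little between the genotypes. The expression value of *Mt1* was 3874 in the WT column and 4046 in the KO column, which gives a log2 ratio of 0.06 with a counting error of ± 0.04 (95% half-width, which covers read sampling and not the spread between pools). That ratio lay above those of 66.9% of the genes. *Mt2* had expression values of 1365 and 1444, a log2 ratio of 0.08 ± 0.06 by the same error. *Mt1* exceeded *Mt2* per kilobase by 2.71 times in WT and 2.67 times in KO. The transcripts of these similar genes share no run of identical bases longer than 20. Neither has recovered reads, and the size of the pool-to-pool spread behind them is unknown. *Mt3* and *Mt4*, the metallothioneins of brain and of stratified epithelium, were not listed in the table.

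*Mtf1* had expression values of 126.3 (WT) and 154.6 (KO), a log2 ratio of 0.29. In WT libraries A, B and C its normalised reads were 168.2, 126.2 and 78.3, and in the KO libraries they were 183.6, 137.1 and 149.0. KO libraries B and C lay within the range of the WT libraries, so the genotypes overlapped, and library A was the highest of its genotype in both. The means were 124.2 ± 45.0 (SD, n = 3) in WT and 156.6 ± 24.2 in KO, and the two-sided exact permutation p was 0.4, where 0.1 is the smallest that 3 libraries against 3 allow. In limma on log2(normalised reads + 1), the difference was 0.39 ± 0.31 (SE), with an adjusted p of 0.999 over all 5293 genes fitted. It was 0.09 without WT library C and 0.64 without WT library A, and the adjusted p was 0.972 or more with any library left out.

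In that fit 0% of the 5293 genes passed an adjusted p of 0.05, and 83 genes (1.57%) had an unadjusted p under 0.05. Every KO library was above every WT library in 3.19% of these genes and below every WT library in 2.36%. None of the 3 members with recovered reads, *Mtf1*, *Slc39a8* and *Slc30a10*, was among the genes without overlap. Without both A libraries, the limma differences of *Mtf1*, *Slc39a8* and *Slc30a10* were 0.52, -0.14 and -0.10. With all libraries they were 0.39, -0.17 and -0.26. The signs were the same, but *Slc30a10* was the lowest only with the A libraries.

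The importers did not share a direction. *Slc39a14* encodes ZIP14, which brings zinc, iron and manganese into hepatocytes, and had an expression value of 1581 in WT and 1980 in KO, 1.252-fold higher in KO. Its log2 ratio of 0.32 ± 0.06 (counting error) exceeded those of 91.9% of the genes and was the highest among the members. *Slc39a4* encodes ZIP4, best known for dietary zinc uptake in the intestine, and was 1.34-fold lower in KO (696.5 in WT and 521.2 in KO, log2 ratio -0.42 ± 0.09). Of all genes, 10.8% had a lower ratio. With no pool values for this pair, neither difference could be set against the spread between pools.

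*Slc39a8* encodes ZIP8, which carries manganese and zinc and recovers manganese from bile. Its expression values were 156.8 in WT and 142.4 in KO. The normalised reads in WT libraries A, B and C were 249.0, 106.9 and 118.6, and those in KO libraries A, B and C were 212.6, 130.3 and 80.2. Library A was the highest of its genotype in both groups, as for *Mtf1*, and the groups overlapped. The means were 158.2 ± 78.9 in WT and 141.0 ± 66.9 in KO (SD, n = 3), with a two-sided exact permutation p of 0.7. The limma difference was -0.17 ± 0.42 (SE) on the log2 scale (adjusted p 0.999), and it was -0.52 without KO library A, -0.39 without WT library B, -0.32 without WT library C, 0.21 without WT library A and 0.18 without KO library C, so its size and sign rested on these libraries.

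Of the exporters, *Slc30a1* encodes ZnT1, the zinc exporter of the plasma membrane. Its expression value was 251.5 (WT) and 247.2 (KO), a log2 ratio of -0.02 ± 0.15 (counting error). Its reads per library were not resolved, because the most plausible set of reads had a weight of 0.741, below the 0.95 required. *Slc30a10* encodes an exporter of manganese at the bile canaliculus and had expression values of 119.7 (WT) and 92.7 (KO), a log2 ratio of -0.37 that 13.5% of the genes fell below. Its normalised reads were 166.6, 45.5 and 155.3 in WT libraries A, B and C and 111.2, 70.5 and 88.1 in the KO libraries. WT library B was the lowest of all 6, the other two WT libraries lay above every KO library, and library A was again the highest of its genotype. The WT libraries spread over 3.66 times and the KO libraries over 1.58 times. The means were 122.5 ± 66.9 in WT and 89.9 ± 20.4 in KO (SD, n = 3), and the two-sided exact permutation p was 0.4. In limma the difference was -0.26 ± 0.49 (SE) on the log2 scale with an adjusted p of 0.999, and it was -0.86 without WT library B, -0.42 without KO library A, -0.09 without KO library B, 0.07 without WT library A and 0.02 without WT library C. The adjusted p was 0.985 or more in each of these fits.

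**Figure D3:**
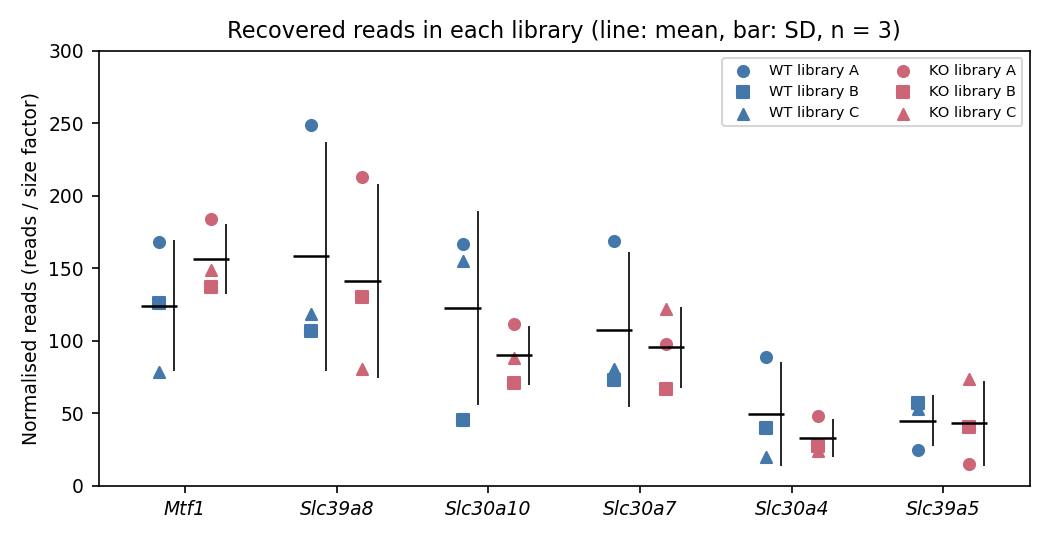
Normalised reads (reads divided by size factor) recovered in each library for the 3 resolved members and for *Slc30a7*, *Slc30a4* and *Slc39a5*; symbols are libraries A, B and C of WT (blue) and KO (red), horizontal lines are means and vertical bars SD (n = 3). The reads of the 3 members and of *Slc30a7* are the most plausible of several sets, chosen partly by the library pattern of other genes. WT and KO overlap for every gene shown, and library A is the highest of its genotype in both groups for *Mtf1*, *Slc39a8*, *Slc30a10* and *Slc30a4*, and the lowest in both for *Slc39a5*.

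The rest of both transporter families was read as a whole. All 11 other ZIP genes were listed, and 8 had a mean value of 10 or more. Of these, 4 were above 0 and 4 below on the log2 scale, beside 42.25% of all expressed genes above 0. Their median was -0.02, with 0 past 1.5-fold. The highest ratios were those of *Slc39a9* (473.7 in WT and 648.4 in KO, log2 ratio 0.45), whose product sits in the Golgi, and of *Slc39a11* (247.9 and 319.9, 0.37). *Slc39a7*, the ZIP of the endoplasmic reticulum, had 1421 and 1352 (-0.07), and *Slc39a1*, a broadly expressed importer of the plasma membrane, 1201 and 1417 (0.24). Of the 8 other ZnT genes, 7 were listed (all but *Slc30a2*), and 6 had a mean value of 10 or more. Again 3 were above 0 and 3 below, with a median of -0.02 and 0 past 1.5-fold. The widest ratio was that of *Slc30a4*, a carrier of endosomes, at -0.45 (47.6 and 34.8). *Slc30a5*, *Slc30a6* and *Slc30a7*, which load zinc into the secretory pathway, had log2 ratios of 0.05, 0.09 and -0.15.

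Reads per library were recovered for 9 of these other zinc genes. In *Slc30a4* they were 89.0, 39.8 and 19.6 normalised reads in WT libraries A, B and C and 48.0, 27.0 and 23.7 in the KO libraries. The KO values all lay within the range of the WT values. *Slc30a7* had 169.0, 72.8 and 80.7 in WT and 97.5, 66.6 and 121.9 in KO. *Slc39a5*, a ZIP of the basolateral membrane, had 24.5, 56.9 and 52.6 in WT and 15.2, 40.6 and 73.4 in KO, so that here library A was the lowest of its genotype in both groups. All 9 genes overlapped between the genotypes. *Slc39a12*, *Slc30a8* and *Slc39a2* had libraries with 0 reads in both genotypes, so their overlap says little. Among genes with a sum of at least 60, only 3.19% (KO above) and 2.36% (KO below) did not overlap, so such a count is near the background. The pancreatic granule carrier *Slc30a8* had 2 reads in KO library C and 1 in WT library A, and *Slc39a12* had 1 read in all.

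Other known targets of MTF1 gave no common direction. Of 6 genes, 5 had a mean value of 10 or more, 2 were above 0 and 3 below, and the median log2 ratio was -0.02. The highest was *Gclc*, the catalytic subunit of glutamate-cysteine ligase, with 1057 in WT and 1390 in KO (0.40). *Gclc* is also a target of NRF2, the factor that responds to oxidants. The other targets of MTF1 ranged from -0.11 (*Ndrg1*) to 0.06 (*Selenoh*). Among 12 genes of copper and manganese handling, 3 were above 0 and 9 below, with a median of -0.11 and 0 past 1.5-fold. For both lists, the share of all expressed genes above 0 was 42.25%. The widest ratios were *Atp7b*, the copper exporter of hepatocytes (209.1 and 273.9, 0.39), and *Atp2c1*, a manganese and calcium pump of the Golgi (102.7 and 81.7, -0.33).

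The genes of the signals that are known to act on metallothioneins spread further. Of 25 acute phase genes of the IL-6 and STAT3 pathway with a mean value of 10 or more, 6 were at least 1.5-fold higher in KO and 0 at least 1.5-fold lower, beside 1.57% and 5.79% of all expressed genes. In all, 19 were above 0 and 6 below, with a median log2 ratio of 0.18, where 42.25% of all expressed genes were above 0. The widest were the serum amyloids *Saa2* (299.4 in WT and 4056 in KO, 3.76) and *Saa1* (542.0 and 4748, 3.13), the siderophore-binding lipocalin *Lcn2* (147.1 and 396.0, 1.43) and *Orm2* (97.7 and 230.9, 1.24), a plasma orosomucoid. Of the genes below 0, the fibrinogens *Fga*, *Fgb* and *Fgg* had -0.37, -0.29 and -0.30, and the iron hormone gene *Hamp* had -0.23. *Mt1* and *Mt2*, with 0.06 and 0.08, lay below the median of this list, and *Slc39a14*, with 0.32, above it. This list holds genes named for their change in the study of these same pools, so its direction is no independent evidence. Of 15 genes induced by glucocorticoids or fasting, 3 were at least 1.5-fold higher and 0 lower, beside the same shares of all expressed genes (1.57% and 5.79%). In all, 10 were above 0 and 5 below (median 0.14). Those past 1.5-fold were *Zbtb16* (90.4 and 192.9, 1.09), *Fkbp5* (592.9 and 907.6, 0.61) and *Igfbp1* (1905 and 2893, 0.60). The glucocorticoid receptor gene *Nr3c1* had 256.8 and 183.3 (-0.49). Of 8 targets of NRF2 with a mean value of 10 or more, 6 were above 0 and 2 below (median 0.23), and *Gsta2*, a glutathione transferase, was at least 1.5-fold lower (74.9 and 45.1, -0.73).

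**Figure D4:**
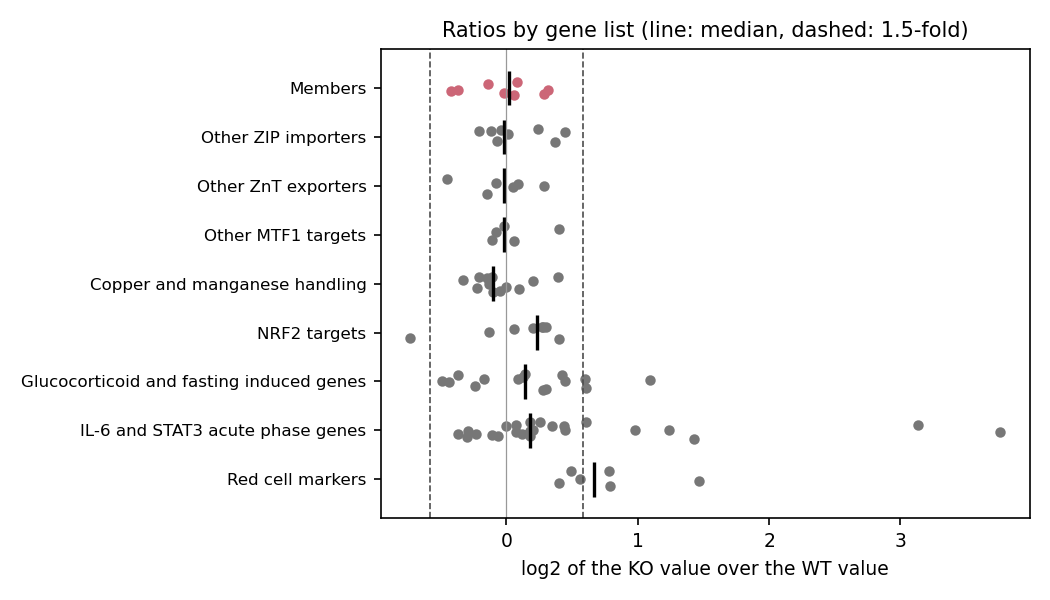
Log2 ratio of KO over WT of each expressed gene by list (points), with the median of each list as a vertical line and 1.5-fold as dashed lines. The 8 members (red) and the other ZIP, ZnT and MTF1 genes lie within 1.5-fold. Beyond it on the higher side lie 6 acute phase genes, 3 genes induced by glucocorticoids or fasting and 3 red cell markers. On the lower side lies 1 NRF2 target.

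Markers of the cells in the tissue were read beside these values. The 8 hepatocyte markers had mean values of 11190 or more and a median log2 ratio of -0.06. All 6 red cell markers were higher in KO and 3 of them past 1.5-fold, beside 42.25% and 1.57% of all expressed genes. Their median was 0.67, and they summed to 118800 in WT and 180400 in KO. The Kupffer cell markers had a median of 0.21, with 1 of 7 past 1.5-fold higher, and summed to 2253 and 2635. The stellate markers went both ways, with 1 of 6 past 1.5-fold higher (*Col1a1*, 0.76), *Col3a1* at 0.56, *Dcn* at -0.50, *Lrat* at -0.44 and a median of 0.01. Medians were -0.04 for sinusoidal endothelial markers, from -0.35 to 0.11, and -0.02 for cholangiocyte markers, from -0.32 to 0.51. Neutrophil markers summed to 14.4 and 15.7, lymphocyte markers to 66.1 and 48.4, and exocrine pancreas markers to 31.0 and 41.3. The part of red cells and Kupffer cells in the ratios of the members was not tested. In bulk tissue, fewer cells of a type cannot be told apart from less RNA per cell.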

How the data were processed

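RNAseq of 6 pooled liver libraries was analysed from the processed tables. The authors deposited, for each of 16123 genes, an expression signal per genotype, which is the reads divided by DESeq2 size factors and combined over the 3 libraries, and percent values of mapping per library. The table also holds the authors' own log2 ratios, p-values and calls of direction, which were not used, and counts of splicing events were not used either. Per the labels, the submitters' processing notes name the build mm10 and the tools HISAT2, StringTie, Cufflinks, GATK, Bowtie2 and RSEM, with no versions. How strand was treated is not given in the sources used here.

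From the 2 values the log2 ratio of KO over WT and the mean were computed, and the 11367 genes with a mean of 10 or more gave the background. The mean of the 2 values is a sum of whole reads, each worth the inverse of its library's size factor, and is deposited with 15 significant digits, so that reads per library could be recovered. Sums of normalised reads up to 400 were enumerated in full (8061 of 8081 genes resolved). From 400 to 900 the most plausible set was taken where its weight was at least 0.95 (1988 of 2046 genes). Only sets within 0.2 of the log2 ratio predicted from the deposited values were weighed. The weight also used the differences between libraries in fully enumerated genes. The recovered log2 ratios had a slope of 1.31 on those of the deposited values. Between 236636 and 514152 reads per library were recovered, which limits the precision. Intervals of the 2 values cover counting error only.

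The 5293 resolved genes with a sum of at least 60 were compared with limma 3.58.1 (R 4.3.3; eBayes with trend, pseudocount 1, Benjamini-Hochberg over all of them), and single members with a two-sided exact permutation test (scipy 1.17.1). The limma fit was tested on simulated data whose changed genes differed by more than any member. That simulation cannot tell whether differences as small as those of the members would be found. Alternatives were other pseudocounts, minimum values, folds and scalings, centring on the median, and leaving out each library. Samples were grouped by their labels. The genes named are the 8 members, all other ZIP and ZnT genes, and up to 4 genes with the largest absolute ratio of each list. *Txndc5* is named as the check of the genotype, and up to 3 genes most like each member with recovered reads are named by Pearson's r. The fibrinogens, *Hamp* and the marker genes were named after their values were seen. The members and lists were chosen with earlier results of these data known. Sequences are from RefSeq and positions from GENCODE M21.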

Additional observations from a re-analysis of the deposited data

How the results depend on the processing

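The median log2 ratio of the members was 0.02, and 0.07 once the ratios were centred on the median of all genes. With a threshold of 0.32 on the log2 scale in place of 1.5-fold, 3 of 8 members passed (*Slc39a14* higher, *Slc39a4* and *Slc30a10* lower), where 8.27% of all genes were higher and 16.4% lower by that much. Adding a term that marks library A of each genotype gave 2 genes past an adjusted p of 0.05 in limma, both lower in KO and neither a member, against 0 without it. With this term 478 genes (9.03%) had an unadjusted p under 0.05, against 83 (1.57%) without it. The limma SE of *Mtf1*, *Slc39a8* and *Slc30a10* fell to 0.23, 0.22 and 0.36, and their adjusted p to 0.671, 0.9 and 0.9. Leaving out each library gave 0 genes past an adjusted p of 0.05 in every case. The counts at an unadjusted p under 0.05 then ranged from 25 to 281. The difference in normalised reads between KO and WT ranged over the left-out libraries from 9.37 to 54.3 for *Mtf1*, from -71.0 to -10.5 for *Slc30a10* and from -52.9 to 28.3 for *Slc39a8*. In limma the log2 differences ranged from 0.09 to 0.64, from -0.86 to 0.07 and from -0.52 to 0.21, and the signs that turned were those of *Slc39a8* (0.18 without KO library C, 0.21 without WT library A) and *Slc30a10* (0.07 without WT library A, 0.02 without WT library C). The cause was not tested. Dividing by the total of recovered reads gave differences of 46.4 for *Mtf1*, -23.1 for *Slc30a10* and -1.99 for *Slc39a8*. The alternatives with sums up to 400 only and without both A libraries were chosen after seeing the data. No paired analysis was possible because the genotypes share only 1 pool number in their labels and the recovered libraries carry none. Counting error gives a 95% half-width of 0.23 on the combined log2 ratio of *Slc30a10* and 0.19 on that of *Slc39a8*. Both lie below the SE of 0.49 and 0.42 in limma, which holds the spread between libraries as well. The measures are unlike, because a 95% half-width is wider than the SE it comes from and the combined ratio is shrunken. For *Mt1*, *Mt2*, *Slc39a14*, *Slc39a4* and *Slc30a1* the spread between pools is unknown.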

Other observations

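The likeness of the 3 members with recovered reads to the genes of the pathway lists was described by Pearson's r of log2(normalised reads + 1) over the 6 libraries, among 19 genes with recovered reads. The points share their libraries and depth, and library A of each genotype weighs on them. *Mtf1* was most like the copper pump gene *Atp7a* (r = 0.93), then *Il1rn* (0.76) and *Sgk1* (0.69). *Slc39a8* was most like *Atp2c1* (0.89), *Slc30a4* (0.81) and *Pdk4* (0.71), and *Slc30a10* was most like *Ppargc1a* (0.84), *Slc39a6* (0.78) and *Sgk1* (0.63). *Slc39a6*, a ZIP of the plasma membrane, had 3 reads in WT library B against 24 and 26 in the other WT libraries, the library in which *Slc30a10* was also lowest, with 40 reads.

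The balance of carriers of 1 kind was read per kilobase of transcript. *Slc39a14* stood at 7.02 times the level of *Slc39a8* in WT and 9.68 times in KO, and at 1.04 and 1.73 times that of *Slc39a4*. *Slc30a1* stood at 2.35 times the level of *Slc30a10* in WT and 2.98 times in KO. These ratios come from the 2 combined values of each gene and have no error over pools.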
